A study of Homo sapiens with 21 samples.

Results

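CD44, CD24, THY1, PROM1, SOX2, SOX9, KLF4, POU5F1, NANOG and LIN28B were examined as stem cell markers and pluripotency factors in BT-549 cells. They are 10 of the 42339 genes in the deposited count table, taken by their Ensembl identifiers. BT-549 is an established human TNBC cell line with wild-type BRCA1, and the study used it to ask how the oncoprotein MUC1-C and the transcription factor MYC act in self-renewing mammosphere (3D) cells. RNA was sequenced from 21 cultures, 3 in each of 7 groups. The 2D cells grew as monolayers in RPMI1640 medium with serum. The 3D cells were untreated (labelled Control) passage 6 mammospheres grown in MammoCult medium without attachment, so growth format and medium cannot be told apart. A further group of passage 6 mammospheres received 0.75 μM GO-203, a peptide inhibitor directed at the CQC motif inside the cytoplasmic domain of MUC1-C. The tet-MUC1shRNA mammospheres, at passage 6, received vehicle (0.1% DMSO) or 500 ng/ml DOX, and the tet-MYCshRNA mammospheres, at passage 8, received the same agents. DOX switches the hairpin on, and each target had a single hairpin. No control hairpin with DOX was among these libraries, so effects of the hairpin and of DOX itself cannot be told apart. The 4 comparisons were 3D against 2D cells, DOX against vehicle in each tet line (MUC1 silencing and MYC silencing), and GO-203-treated against untreated 3D cells. The first and the last share the 3 untreated 3D libraries.

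CD44 is a receptor for the matrix polysaccharide hyaluronan, and CD24 is a small lipid-anchored surface glycoprotein. Breast cancer cells with much CD44 and little CD24 at the surface are often enriched for tumor-initiating cells. THY1 (CD90) and PROM1 (CD133) are further surface markers used for stem-like cells. SOX2, POU5F1 (OCT4), NANOG and KLF4 are transcription factors of the pluripotency network, LIN28B is an RNA-binding protein that blocks maturation of let-7 microRNAs, and SOX9 is a transcription factor of mammary and other epithelial progenitors. What follows concerns transcripts only, and a transcript level is not a measure of surface protein.

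Library totals ranged from 38026597 to 99751717 counts, and 3 counts in a library corresponded to 0.0301 to 0.0789 CPM, counts scaled to a library of 1000000. Low counts were mostly even numbers: 67.0% to 71.1% of the counts from 1 to 20 in a library. Both reads of a pair were therefore apparently counted, and any statement on a few counts covers counting error only. Replicate libraries were distinct: in the 21 pairs within groups, chi-square values divided by their degrees of freedom were 4.37 to 52.8. DOX-treated tet-MYCshRNA replicate 1 stood apart, at 52.8 and 36.3 against the other 2 libraries of its group, where no other pair exceeded 21.04. Without it, 7 of 7 genes still passed on MYC silencing. Nothing says how the 3 cultures of a group were separated, so p-values measure the spread between these cultures. MUC1 fell on MUC1 silencing (log2 fold change −2.06, SE 0.07, edgeR adjusted p = 2.97e-15), where MYC rose by little (0.25, SE 0.04, edgeR adjusted p = 5.01e-05). MYC fell on MYC silencing (log2 fold change −0.62, SE 0.08, edgeR adjusted p = 9.05e-05), where MUC1 rose (1.25, SE 0.11, edgeR adjusted p = 5.06e-06). The label gives breast epithelium, and its markers were uneven: EPCAM had at most 6 counts in any library, ERBB2 had group means of 20.1 to 36.1 CPM, and the basal keratin gene KRT5 had group means of 0.0235 to 94.1 CPM. None of the other epithelial markers examined exceeded 1.55 CPM in a library, including the basal keratin genes KRT14 (at most 0.313) and KRT17 (0.156). The mesenchymal filament gene VIM had group means of 1083 to 2479 CPM. The summed level of 8 blood cell markers stayed between 0.287 and 1.98 CPM in the 21 libraries.

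Of the 10 genes, CD44, CD24, THY1, SOX9, KLF4 and POU5F1 passed the filter on low counts in all 4 comparisons. SOX2 passed it on MYC silencing alone, and PROM1, NANOG and LIN28B passed it in none. Within the length-scaled values of 2D cells, CD24 (186 CPM per kb of exon) and CD44 (161) stood above SOX9 (43.5), THY1 (37.2) and KLF4 (13.01). Within those of 3D cells CD44 came first at 88.7 CPM per kb, followed by THY1 at 53.9, KLF4 at 23.9, SOX9 at 7.51 and CD24 at 3.52. The remaining values are CPM without length scaling. They are compared only within a gene, except in ratios of CD44 to CD24 counts and in sums of marker genes, which are not corrected for length. CPM per library was scaled by TMM factors over the 21 libraries.

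**Figure D1:**
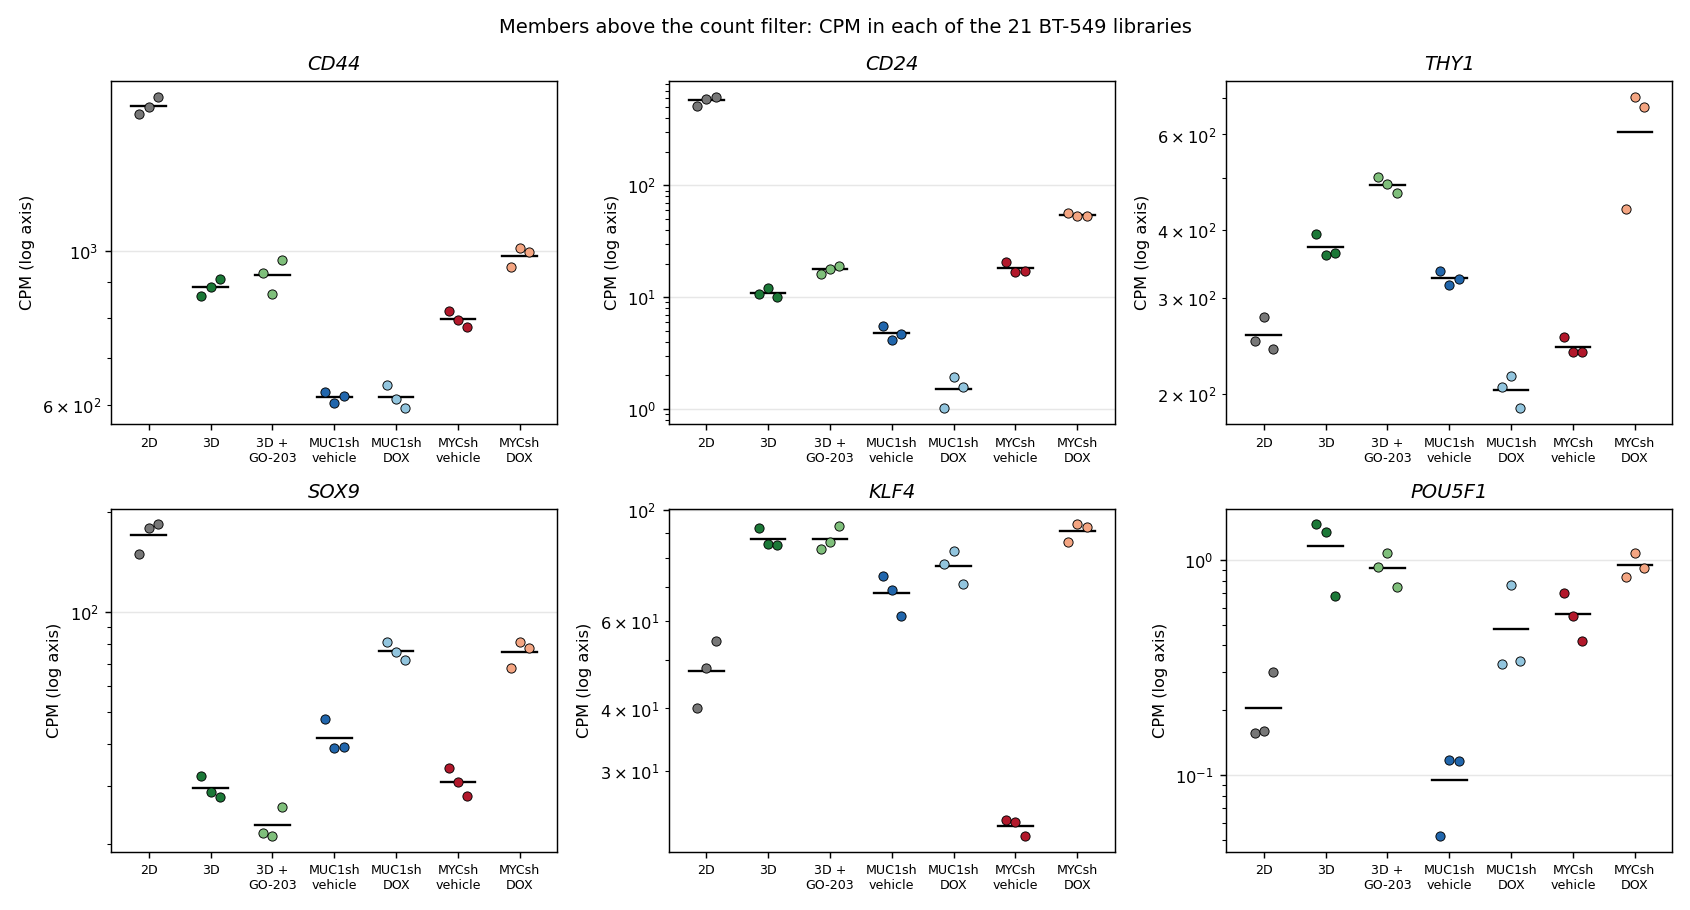
Points are the CPM of each library on a log axis for 6 genes in the 7 groups, and horizontal lines are group means of 3 libraries. CD24 falls from 516 CPM or more in 2D cells to at most 56.3 CPM in every mammosphere library.

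The 3D against 2D comparison asked how these genes differ between monolayers and self-renewing mammospheres. CD24 showed the widest difference of the 6 genes tested, and SOX9 and CD44 were also lower in 3D cells. KLF4, THY1 and POU5F1 were higher. Thus 3 genes rose and 3 fell, where 32.0% of the 19190 genes tested rose and 31.7% fell at an edgeR adjusted p below 0.1. CD24, SOX9 and POU5F1 also passed an absolute log2 fold change of 1.5, as did 16.2% of all genes tested. In bulk RNA, fewer cells of a kind and less RNA per cell cannot be told apart.

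A RefSeq window before a start is shown for each of CD24, CD44 and KLF4. They were chosen as the most reduced marker in 3D cells, its usual partner, and the gene that rose most on MYC silencing. Each line gives 250 bases 5′ to 3′ on the gene's strand, ending just before the RefSeq start (GRCh38.p14). Capitals mark CACGTG, the E-box bound by MYC, and GGGCGG, the GC box bound by SP and KLF proteins, searched on both strands (CCGCCC is the GC box on the other strand, and none of the matches shown overlap).
CD24, chr6:106975628-106975877, minus strand: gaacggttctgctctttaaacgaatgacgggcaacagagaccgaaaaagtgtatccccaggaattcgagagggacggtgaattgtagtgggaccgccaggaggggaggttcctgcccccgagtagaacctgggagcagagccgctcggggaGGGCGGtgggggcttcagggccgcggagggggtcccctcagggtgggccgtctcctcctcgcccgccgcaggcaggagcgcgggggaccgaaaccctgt
CD44, chr11:35138921-35139170, plus strand: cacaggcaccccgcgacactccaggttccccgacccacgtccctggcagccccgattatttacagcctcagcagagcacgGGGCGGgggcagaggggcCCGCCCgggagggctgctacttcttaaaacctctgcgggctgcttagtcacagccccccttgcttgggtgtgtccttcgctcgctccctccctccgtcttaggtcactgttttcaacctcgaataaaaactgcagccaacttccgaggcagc
KLF4, chr9:107489770-107490019, minus strand: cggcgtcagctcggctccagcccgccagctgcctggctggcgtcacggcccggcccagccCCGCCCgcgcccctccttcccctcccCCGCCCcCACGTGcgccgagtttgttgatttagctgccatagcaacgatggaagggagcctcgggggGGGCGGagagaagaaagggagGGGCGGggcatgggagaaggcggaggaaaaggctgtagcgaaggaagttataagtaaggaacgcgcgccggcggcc
The KLF4 window holds 1 E-box, which begins 157 bases before the start, and 4 GC boxes. The CD44 window holds 2 GC boxes and the CD24 window shown 1, and neither holds CACGTG. CD24 also has RefSeq windows 2 and 3, not shown, with 0 and 1 GC boxes and no CACGTG. The CD44 and KLF4 windows lie inside the gene spans given below, which come from another annotation (GENCODE). Among the 35116 RefSeq windows of this length, 6.34% hold the E-box and 42.6% the GC box. RefSeq gave 13 windows for 7 of the 10 genes, and the other window with an E-box belongs to LIN28B. No windows were at hand for SOX9, POU5F1 and THY1. A match describes letters in the window, not binding.

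CD44 (ENSG00000026508.20, GRCh38 chromosome 11, 35138882 to 35232402) was at 1569, 1607 and 1663 CPM in the 3 2D libraries and at 861, 887 and 911 in 3D cells. The 2 groups were far apart, and 2D cells had more CD44 than any other group. The log2 fold change was −0.81 (SE 0.05, edgeR adjusted p = 3.92e-10), or 1.75-fold lower. It was −1.35 when the vehicle-treated tet-MUC1shRNA line replaced the 3D cells. CD44-AS1 and CD44-DT lie opposite 1.54% of its exon bases.

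CD24 (ENSG00000272398.6, chromosome 6, 106969831 to 106975627) had 516, 590 and 621 CPM in 2D cells. The 3D libraries had 10.6, 12.01 and 10.1 CPM. The drop of 5.67 on the log2 scale (SE 0.09, edgeR adjusted p = 2.24e-17) is a 50.9-fold lower level. In raw counts, the 2D libraries held 23144 to 35227 CD24 counts and the 3D libraries 524 to 667, so CD24 transcript remained well above the 3-count floor. The tet-MUC1shRNA mammospheres with vehicle had less CD24 again, at 4.18 to 5.55 CPM.

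As CD24 fell more than CD44, the number of CD44 counts per CD24 count rose. This ratio was 2.68 to 3.04 in 2D cells and 73.9 to 90.6 in 3D cells. It reached 113 to 145 in vehicle-treated tet-MUC1shRNA mammospheres and was 40.1 to 47.2 in vehicle-treated tet-MYCshRNA mammospheres. These ratios are of raw counts, not corrected for length, and describe a culture rather than single cells. The higher ratio in mammospheres came with a lower, not a higher, level of CD44 itself.

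**Figure D2:**
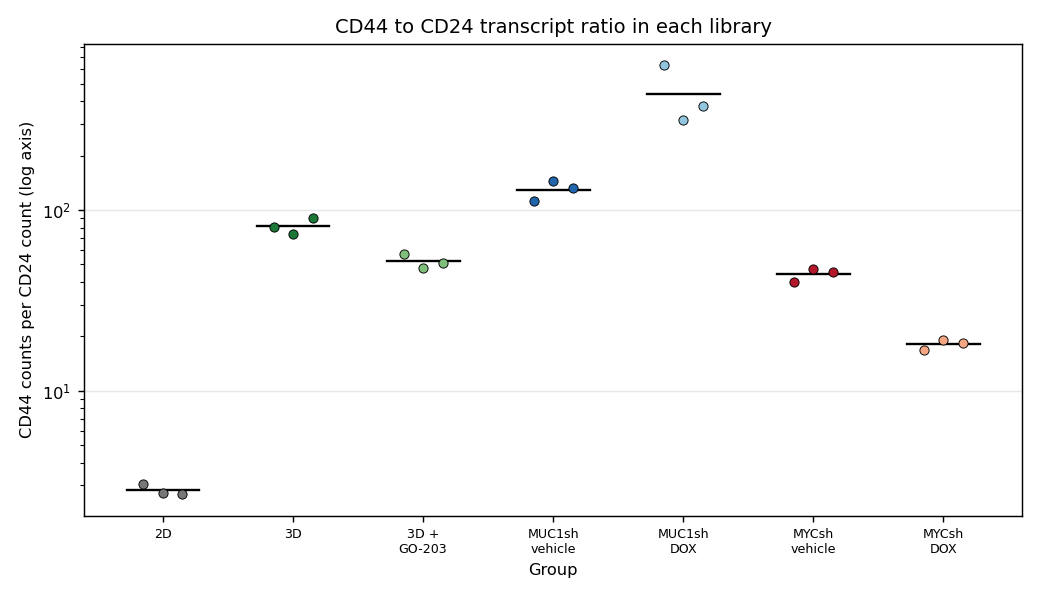
CD44 counts divided by CD24 counts in each library, on a log axis, by group, with horizontal lines at the means of 3 libraries. The ratio is about 3 in 2D cells, is highest with DOX in tet-MUC1shRNA mammospheres (317 to 632), and is lower with DOX than with vehicle in tet-MYCshRNA mammospheres.

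THY1 (ENSG00000154096.14, chromosome 11, 119415476 to 119424985) encodes a lipid-anchored protein of fibroblasts, nerve cells and mesenchymal stem cells. It was counted at 250, 277 and 242 CPM in 2D cells and at 393, 360 and 363 CPM in 3D cells. The groups did not overlap, with a log2 fold change of 0.59 (SE 0.06, edgeR adjusted p = 3.76e-07). The higher level was not shared by each kind of mammosphere. Vehicle-treated tet-MYCshRNA mammospheres had 239 to 255 CPM, overlapping the 2D libraries. DOX-treated tet-MUC1shRNA mammospheres had 188 to 216 CPM, below every 2D library. THY1-AS1 and USP2-AS1 lie opposite 12.5% of its exon bases. The strand setting of the count was not stated, so their reads cannot be separated from those of THY1 there.

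SOX9 (ENSG00000125398.8, chromosome 17, 72121020 to 72126416) went from 150, 179 and 184 CPM in 2D cells to 32.0, 28.7 and 27.8 CPM in 3D cells. The log2 fold change was −2.48 (SE 0.08, edgeR adjusted p = 1.16e-13), a 5.57-fold lower level. KLF4 (ENSG00000136826.15, chromosome 9, 107484852 to 107490482) moved the other way, from 40.1, 48.2 and 54.7 CPM to 92.1, 85.6 and 85.0 CPM. Its log2 fold change was 0.93 (SE 0.08, edgeR adjusted p = 7.56e-08). A gene without a symbol (ENSG00000289987) lies opposite 9.75% of the KLF4 exon bases. The higher level did not hold for each kind of mammosphere: vehicle-treated tet-MYCshRNA mammospheres had 22.2 to 23.9 CPM of KLF4, below the 2D libraries.

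POU5F1 (ENSG00000204531.20, chromosome 6, 31164337 to 31180731) was scarce in all cultures. It had 7, 9 and 17 counts in 2D cells and 72, 70 and 45 counts in 3D cells, or 0.156 to 0.300 and 0.678 to 1.46 CPM. On this scale the log2 fold change was 2.52 (SE 0.41, edgeR adjusted p = 6.04e-05). Vehicle-treated tet-MUC1shRNA mammospheres had only 2, 5 and 6 counts, so here too a higher level was not shared by each kind of mammosphere. TCF19 lies opposite 8.64% of the POU5F1 exon bases, and reads of its near-identical pseudogenes and of POU5F1B could be assigned to either gene, so its level is uncertain.

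MUC1 silencing compared DOX with vehicle in tet-MUC1shRNA mammospheres. CD24 and THY1 fell, and SOX9, POU5F1 and, by little, KLF4 rose. CD44 did not pass the test. That is 3 genes up and 2 down of 6, beside 30.7% and 31.6% of the 19220 genes tested. CD24 and POU5F1 passed the log2 fold change of 1.5, as did 8.82% of all genes tested.

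CD44 was at 626, 604 and 619 CPM with vehicle and at 641, 612 and 594 CPM with DOX, and the groups overlapped. Its log2 fold change of −0.01 had a 95% interval of −0.09 to 0.07 (edgeR adjusted p = 0.818). Scaled by library size alone, which moved the median of all genes by 0.17, the value was 0.16 with an edgeR adjusted p of 0.00129. CD24 had 214, 179 and 242 counts with vehicle and 56, 136 and 70 with DOX, which are 5.55, 4.18 and 4.68 CPM against 1.01, 1.93 and 1.58 CPM. The groups were apart, with a log2 fold change of −1.67 (SE 0.20, edgeR adjusted p = 4.27e-07). CD44 counts per CD24 count rose accordingly to 317 to 632 with DOX.

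THY1 went from 336, 317 and 326 CPM to 206, 216 and 188 CPM, a log2 fold change of −0.69 (SE 0.04, edgeR adjusted p = 2.02e-11). SOX9 went from 47.7, 38.9 and 39.2 CPM to 81.4, 76.1 and 71.8 CPM, a log2 fold change of 0.86 (SE 0.07, edgeR adjusted p = 5.06e-10). Both moved against their change in 3D cells relative to 2D cells. CD24, POU5F1 and KLF4 moved in the same direction as there. The 2 comparisons share no library, but their difference was not tested.

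KLF4 had 73.9, 69.2 and 61.2 CPM with vehicle and 78.0, 82.8 and 71.0 CPM with DOX. The 2 groups overlapped, and the log2 fold change was 0.17 (SE 0.06, edgeR adjusted p = 0.0193). The call was lost without vehicle replicate 3 (edgeR adjusted p = 0.127) or without DOX replicate 2 (0.105), and with all 21 libraries in one fit (0.141). With library size alone the value was 0.34 (edgeR adjusted p = 2.96e-05). POU5F1 rose from the 2, 5 and 6 counts given above to 18, 54 and 15 with DOX. Its log2 fold change was 2.28 (SE 0.55, edgeR adjusted p = 0.0013), at levels under 1 CPM.

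GO-203 treatment asked what blocking MUC1-C with a peptide does in 3D cells. CD24 and THY1 rose and SOX9 fell, each by less than a log2 of 1, and CD44, KLF4 and POU5F1 did not pass the test. The background was lower here, with 11.1% of 18488 genes up, 12.9% down, and 0.757% past a log2 fold change of 1.5, which none of the 6 genes passed. MUC1 itself was higher with GO-203 (log2 fold change 0.33, SE 0.07, edgeR adjusted p = 0.00191).

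CD24 stood at 16.3, 18.02 and 19.01 CPM with GO-203, above the 10.1 to 12.01 CPM of untreated 3D cells. The log2 fold change was 0.73 (SE 0.09, edgeR adjusted p = 7.38e-06), and the ratio of CD44 to CD24 counts dropped to 48.1 to 56.9. THY1 was at 501, 486 and 468 CPM, above every untreated library, with a log2 fold change of 0.40 (SE 0.05, edgeR adjusted p = 1.3e-05). SOX9 stood at 21.6, 21.2 and 25.9 CPM, below every untreated library, with a log2 fold change of −0.35 (SE 0.08, edgeR adjusted p = 0.00386).

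CD44 was at 928, 866 and 970 CPM, overlapping the untreated cells, and the interval of its log2 fold change ran from −0.03 to 0.18 (edgeR adjusted p = 0.355). Without GO-203 replicate 2 it was 0.12 and passed (edgeR adjusted p = 0.0792). KLF4, at 83.6, 86.3 and 93.1 CPM, had an interval of −0.11 to 0.15 (edgeR adjusted p = 0.87). POU5F1 had 42, 42 and 45 counts and a wide interval of −0.97 to 0.32 (edgeR adjusted p = 0.542).

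MYC silencing compared DOX with vehicle in tet-MYCshRNA mammospheres. All 7 genes tested rose. The background was 30.3% of 19951 genes up and 28.1% down. KLF4 and CD24 also passed the log2 fold change of 1.5, as did 10.5% of all genes tested. The rises of CD24, KLF4, SOX9 and THY1 were more than 2-fold, that of CD44 was small, and those of SOX2 and POU5F1 rested on few counts.

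KLF4 was at 23.9, 23.7 and 22.2 CPM with vehicle and at 86.4, 93.7 and 92.7 CPM with DOX. The groups were widely apart, with a log2 fold change of 1.95 (SE 0.07, edgeR adjusted p = 1.25e-08), or 3.87-fold. With DOX the level was that of untreated 3D cells, whose libraries it overlapped. CD24 rose from 20.5, 16.8 and 17.1 CPM to 56.3, 53.0 and 53.8 CPM, a log2 fold change of 1.57 (SE 0.10, edgeR adjusted p = 4.49e-07). The ratio of CD44 to CD24 counts was 16.8 to 19.0 with DOX, the lowest of any mammosphere group.

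SOX9 went from 33.8, 30.8 and 28.04 CPM to 68.1, 81.3 and 78.1 CPM (log2 fold change 1.28, SE 0.09, edgeR adjusted p = 9.13e-07). CD44 went from 820, 795 and 778 CPM to 946, 1009 and 995 CPM, a log2 fold change of 0.29 (SE 0.05, edgeR adjusted p = 0.0012). Neither pair of groups overlapped. THY1 had 255, 239 and 239 CPM with vehicle and 438, 704 and 673 CPM with DOX, where replicate 1 was well below the other 2 but above every vehicle library. Its log2 fold change of 1.29 (SE 0.14, edgeR adjusted p = 2.12e-05) was 1.46 without that replicate.

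POU5F1 had 52, 55 and 26 counts with vehicle and 42, 62 and 57 with DOX. On the CPM scale, the 0.420 to 0.703 CPM with vehicle lay below the 0.831 to 1.08 CPM with DOX, and the log2 fold change was 0.74 (SE 0.29, edgeR adjusted p = 0.0521). The call was lost without vehicle replicate 2 or 3 or DOX replicate 2, with edgeR adjusted p-values of 0.141 to 0.16, and without the low-count filter (0.112). SOX2 (ENSG00000181449.4, chromosome 3, 181711925 to 181714436) had 32, 26 and 12 counts with vehicle and 20, 46 and 42 with DOX. The groups overlapped at 0.194 to 0.433 and 0.396 to 0.798 CPM, and the log2 fold change was 1.06 (SE 0.41, edgeR adjusted p = 0.0527). That call was lost on leaving out any 1 of 4 libraries (vehicle replicate 2 or 3, DOX replicate 2 or 3; edgeR adjusted p = 0.118 to 0.166), with the replicate number as a block (0.103), and with all 21 libraries in one fit (0.161).

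**Figure D3:**
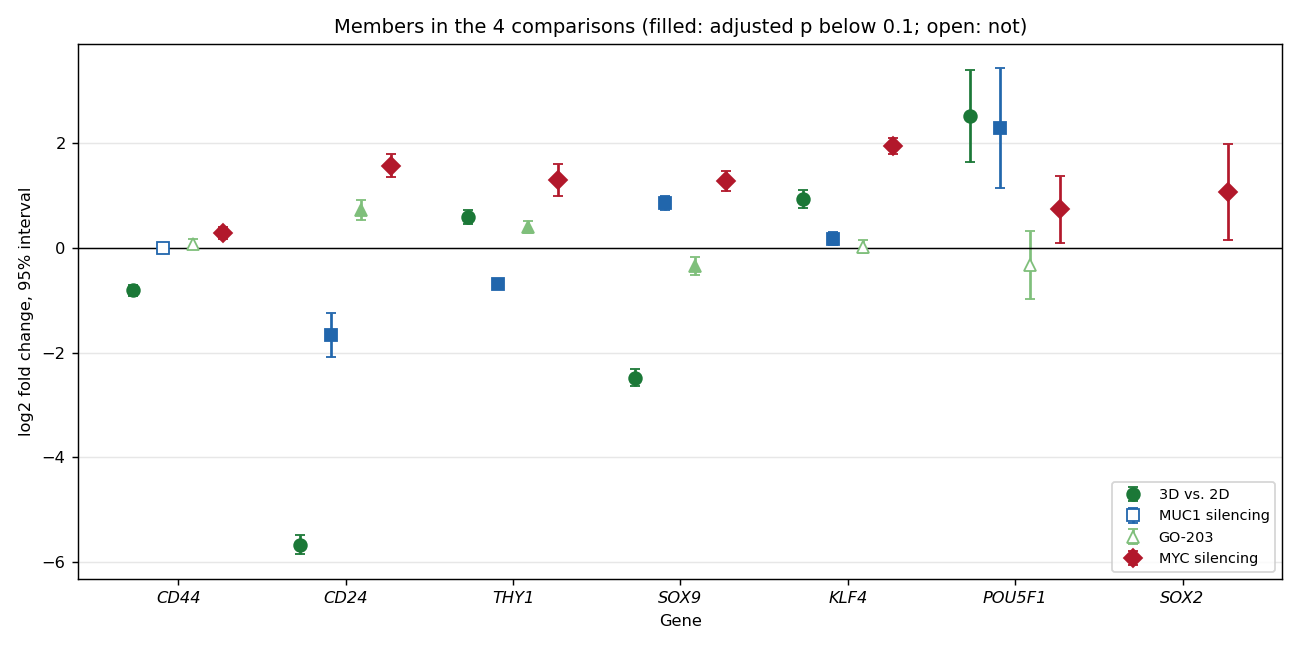
Log2 fold changes with 95% intervals for the 7 genes that passed the low-count filter, in the 4 comparisons, with filled symbols for an adjusted p below 0.1. CD24 and THY1 lie below 0 on MUC1 silencing and above 0 with GO-203 and on MYC silencing, and SOX9 lies above 0 on both kinds of silencing.

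The difference between the silencing of MUC1 and of MYC was tested as an interaction over 12 libraries. All 7 genes passed, beside 52.9% of the 21585 genes tested, but SOX2 passed narrowly (3.51, edgeR adjusted p = 0.0901). Its call was lost with DESeq2 (adjusted p = 0.166), without the low-count filter (0.144), with all 21 libraries in one fit (0.145), with the replicate number as a block (0.129) and on leaving out any 1 of 9 of the 12 libraries (0.105 to 0.178). THY1 and CD24 had opposite signs: the difference in log2 fold change (MUC1 minus MYC silencing) was −1.999 for THY1 (SE 0.16, edgeR adjusted p = 7.48e-09) and −3.25 for CD24 (SE 0.22, edgeR adjusted p = 1.03e-09). KLF4 rose on both, by far less on MUC1 silencing (difference −1.79, SE 0.10, edgeR adjusted p = 9.1e-11). SOX9 also rose on both, and its difference of −0.44 was the smaller (SE 0.12, edgeR adjusted p = 0.00659), at −0.23 with library size alone. The difference for CD44 was −0.31 (SE 0.06, edgeR adjusted p = 0.000545), and with library size alone it was −0.11 and did not pass (0.175). POU5F1 rose more on MUC1 silencing (difference 1.54, SE 0.60, edgeR adjusted p = 0.0445), a call that did not hold without MUC1 vehicle replicate 1, MUC1 DOX replicate 2 (where the difference was 0.996) or MYC vehicle replicate 1. The lines also differ in passage, so line, passage and target cannot be told apart here.

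The difference between MUC1 silencing and GO-203 passed for 4 of the 6 genes tested, beside 44.9% of 20829 genes. CD24 (difference −2.38, SE 0.21, edgeR adjusted p = 5.44e-10) and THY1 (−1.09, SE 0.07, edgeR adjusted p = 1.61e-12) fell with the hairpin and rose with the peptide. SOX9 did the reverse (difference 1.20, SE 0.11, edgeR adjusted p = 1.93e-09). POU5F1 differed by 2.62 (SE 0.63, edgeR adjusted p = 0.00141). CD44 differed by −0.08 (95% interval −0.21 to 0.05, edgeR adjusted p = 0.345) and KLF4 by 0.16 (−0.03 to 0.34, edgeR adjusted p = 0.185). KLF4 passed with library size alone at 0.31 (edgeR adjusted p = 0.0039), with at least 10 counts in every library at 0.20 (0.064) and without MUC1 vehicle replicate 1 at 0.22 (0.0662). CD44 passed without GO-203 replicate 2 at −0.13 (edgeR adjusted p = 0.0945). These comparisons differ in line, in control (vehicle or untreated) and in agent, which cannot be told apart here.

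SOX2, PROM1, NANOG and LIN28B were near the limit of these libraries. SOX2 had 198 counts in all 21 libraries, of which the tet-MYCshRNA mammospheres held 70 with vehicle and 108 with DOX. In the other 15 libraries it had at most 4 counts, and the 3 vehicle-treated tet-MUC1shRNA libraries had 0. The fitted difference of SOX2 between MUC1 and MYC silencing, 3.51 (SE 1.62, edgeR adjusted p = 0.0901), rests on 0, 0 and 0 counts with vehicle against 4, 2 and 2 with DOX in the tet-MUC1shRNA line, so its size depends on the prior count, and its call was lost under the settings given above.

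PROM1 (ENSG00000007062.12, chromosome 4, 15963076 to 16084378) had 28 counts in all and at most 6 in a library. NANOG (ENSG00000111704.11, chromosome 12, 7787794 to 7799146) had 17 counts, and LIN28B (ENSG00000187772.8, chromosome 6, 104936616 to 105083332) had 15. LIN28B had no entry in the 2D, 3D and GO-203 libraries, which was read as 0. The 0 counts of NANOG over the 3 libraries of 3D cells allow a level of up to 0.0178 CPM if counts are taken as 3 single reads, and of up to 0.0355 CPM if they are taken as 3 read pairs, or 6 counts. Differences between groups were not tested for PROM1, NANOG and LIN28B, which failed the low-count filter.

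**Figure D4:**
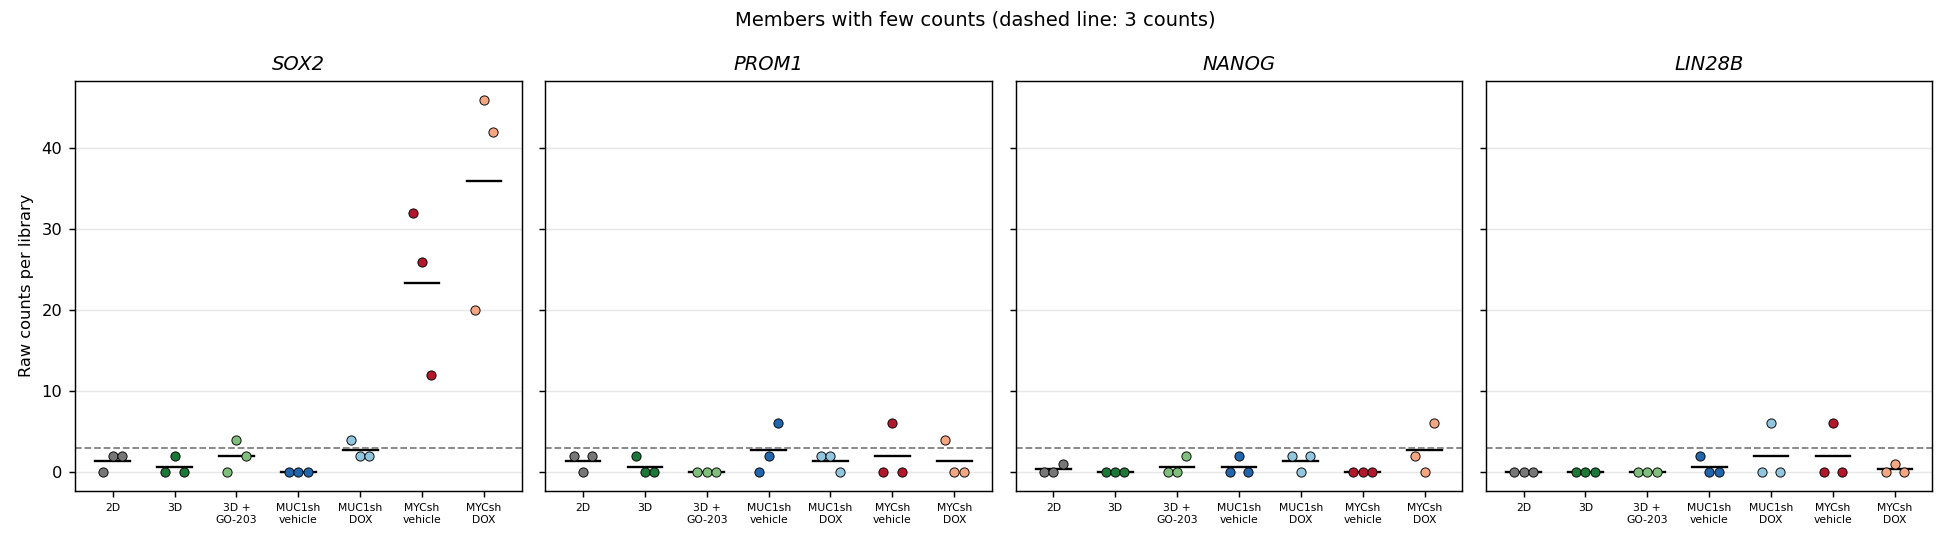
Raw counts in each library of the 4 genes with few counts, by group, with lines at the means of 3 libraries and a dashed line at 3 counts. SOX2 lies at 12 to 46 counts in the tet-MYCshRNA mammospheres and at 0 to 4 elsewhere, and the other 3 genes do not exceed 6.

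For the 5 genes with a mean of at least 100 counts per library, the 7 groups were put in order of mean CPM. Of the 30 pairs of neighbours in these orders, 11 had overlapping libraries (36.7%), against 59.0% over the 12306 genes with such a mean. CD44 ran from 2D cells through DOX-treated tet-MYCshRNA, GO-203-treated and untreated 3D and vehicle-treated tet-MYCshRNA cells to both tet-MUC1shRNA groups. In this order the DOX-treated tet-MYCshRNA, GO-203-treated and untreated 3D cells overlapped their neighbours among themselves, as did both tet-MUC1shRNA groups. CD24 had a single overlapping pair of neighbours, vehicle-treated tet-MYCshRNA and GO-203-treated mammospheres. SOX9 was highest in 2D cells and lowest with GO-203, and its levels in the 2 DOX-treated groups overlapped. KLF4 and THY1 were highest in DOX-treated tet-MYCshRNA mammospheres, where each overlapped the next group, the GO-203-treated cells.

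Over the 21 libraries, the genes most like each of these 5 were named by the Pearson correlation of log2(CPM + 0.5) among 10990 protein-coding genes with such a mean count. The points share groups, so these values describe likeness and carry no test. CD44 was closest to EPHA3 (r = 0.976), an ephrin receptor, ADAM12 (0.972), a metalloprotease, and MAGI3 (0.971). CD24 was closest to BMPR1A (r = 0.977), a bone morphogenetic protein receptor, MIA3 (0.9753) and BMP1 (0.972), a procollagen protease. SOX9 was closest to PIK3R3 (r = 0.961), FGD6 (0.960) and ABRACL (0.959). KLF4 was closest to TNFRSF1B (r = 0.928), a receptor of tumor necrosis factor, CACNA2D3 (0.924) and CHI3L1 (0.916). THY1 was closest to APOE (r = 0.950), an apolipoprotein, HSF4 (0.947) and UNC93B1 (0.942).

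Other genes of pluripotency moved in both directions. For this and the following lists, the background is the share of all genes tested that passed in each comparison. It was 32.0% up and 31.7% down in 3D cells, and 30.7% and 31.6% on MUC1 silencing. With GO-203 it was 11.1% and 12.9%, and on MYC silencing 30.3% and 28.1%. The medians over all genes given in this paragraph hold for each list. Mean CPM for these and the following lists used TMM factors from the 6 libraries compared. The exception is the cell type markers, whose CPM was scaled over the 21 libraries. Of a list of 30, 24 were in the table and 10 to 13 passed the filter, so most of the list had too few counts to test. In 3D against 2D cells 7 of 12 rose and 4 fell (median log2 fold change 0.74, and −0.01 over all genes). TFCP2L1, a factor of naive pluripotency, rose from 0.0262 to 5.86 CPM, and KLF2 from 0.797 to 6.19 CPM. DNMT3B, a DNA methyltransferase of early embryonic cells, fell from 11.1 to 0.685 CPM. On MUC1 silencing 3 of 13 rose and 3 fell (median −0.06, and 0.02 over all genes), and without vehicle replicate 2 only 3 passed. There NR5A2 fell (log2 fold change −0.96, SE 0.16, edgeR adjusted p = 4.09e-05) and KLF5 rose (0.50, SE 0.06, edgeR adjusted p = 1.14e-06). With GO-203, 2 of 10 rose and 4 fell (median −0.15, and 0.02 over all genes), KLF2 by the widest margin (log2 fold change −1.66, SE 0.16, edgeR adjusted p = 1.58e-07). On MYC silencing 4 of 12 rose and 5 fell (median −0.19, and 0.01 over all genes). TFCP2L1 rose 6.87-fold there, while NR5A2 was 9.04-fold and KLF2 7.15-fold lower.

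LIN28 proteins act through let-7, and the transcripts of 24 genes of that axis were examined beside the near-absent LIN28B. In 3D cells 10 of 21 tested rose and 7 fell. The let-7 targets HMGA2 (25.2 to 121 CPM), HMGA1 (204 to 721 CPM) and the cyclin gene CCND1 (1.39 to 97.2 CPM) were among those that rose, and the receptor gene IGF1R fell (106 to 37.6 CPM). MUC1 silencing raised 11 of 21 and lowered 6. There DICER1, which cuts microRNA precursors, rose (log2 fold change 0.69, SE 0.04, edgeR adjusted p = 1.39e-11) and IGF2BP2 fell (−0.57, SE 0.05, edgeR adjusted p = 1.31e-09). GO-203 raised 1 of 21 and lowered 4, and HMGA1 and CCND1 were 1.88-fold and 1.86-fold lower. MYC silencing raised 3 of 22 and lowered 9, with CDC25A 2.71-fold, HMGA1 2.16-fold and CCND1 1.93-fold lower. The medians were 0.01, 0.22, −0.07 and −0.06 in this order, beside −0.01, 0.02, 0.02 and 0.01 over all genes.

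Among 30 further surface markers and regulators of stem cells, 11 of 21 rose and 9 fell in 3D cells (median 0.47). The adhesion gene ALCAM (CD166) fell from 1383 to 285 CPM and MCAM from 23.4 to 1.36 CPM, whereas NT5E (CD73) rose from 198 to 788 CPM. F3, the tissue factor gene, had 0 counts in each 2D library and a mean of 141 CPM in 3D cells. On MUC1 silencing 9 of 22 rose and 8 fell (median −0.06), with MCAM 19.3-fold higher and L1CAM at 2.56 CPM with vehicle and 0.0848 CPM with DOX. BMI1, a Polycomb protein of self-renewing cells, fell as well (log2 fold change −0.79, SE 0.05, edgeR adjusted p = 1.15e-11). With GO-203, 3 of 20 rose and 3 fell (median −0.01), NT5E by 1.87-fold, and BMI1 did not pass (log2 fold change 0.14, SE 0.06, edgeR adjusted p = 0.132). On MYC silencing 11 of 20 rose and 8 fell (median 0.33), with NT5E 2.84-fold and PROCR 5.07-fold lower and F3 1.69-fold higher. BMI1 fell there by 0.22 on the log2 scale (SE 0.09, edgeR adjusted p = 0.0661), and in 3D against 2D cells it did not pass (−0.09, SE 0.07, edgeR adjusted p = 0.301).

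SOX2 and SOX9 were set beside 17 other SOX genes, of which 15 were in the table. In 3D cells 4 of 11 rose and 6 fell (median −0.87), SOX11 from 105 to 5.25 CPM and SOX4 from 236 to 81.5 CPM, while SOX15 rose from 0.447 to 6.45 CPM. MUC1 silencing raised 6 of 10 and lowered 3 (median 0.44), with SOX15 4.15-fold higher and SOX11 3.05-fold lower. With GO-203, 1 of 9 rose and 1 fell (median −0.12), and SOX15 was 2.14-fold lower. MYC silencing raised 3 of 9 and lowered 5 (median −0.32), with SOX4 3.70-fold higher and SOX7 2.43-fold lower. SOX9 rose on MYC silencing as SOX4 did, and the listed SOX genes went both ways, beside 30.3% up and 28.1% down over all genes.

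KLF4 belongs to a family of which 16 other members were in the table. In 3D cells 8 of 13 rose and 4 fell (median 0.27), and KLF9, a target of glucocorticoid receptors, went from 14.8 to 391 CPM. MUC1 silencing raised 4 of 13 and lowered 3 (median 0.15), with KLF6 1.42-fold higher and KLF7 1.56-fold lower. GO-203 raised 5 of 12 and lowered 4 (median 0.11), with KLF10 1.56-fold higher. On MYC silencing 9 of 13 rose and 4 fell (median 0.42). There KLF9 was 2.64-fold higher and KLF2, in the same family as KLF4, was 7.15-fold lower.

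Of 25 genes of hyaluronan and CD44 binding, 6 of 19 rose and 9 fell in 3D cells (median −0.42). SRGN, a proteoglycan that binds CD44, went from 0.285 to 1071 CPM there, and MMP14, a membrane protease that cuts CD44, fell from 236 to 64.2 CPM. MUC1 silencing raised 12 of 21 and lowered 5 (median 0.37), including the hyaluronan synthase HAS3 (2.18-fold higher), EZR, which ties CD44 to actin (2.03-fold higher), and SRGN (2.35-fold lower). With GO-203, 2 of 17 rose and 6 fell (median −0.12), HMMR by 1.505-fold and HAS3 by 1.37-fold. MYC silencing raised 8 of 21 and lowered 7 (median −0.06), with EZR 1.79-fold and HAS3 1.71-fold lower and CEMIP2 1.71-fold higher. The folds of CD44 itself in these 3 mammosphere comparisons were 1.01, 1.05 and 1.22.

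Genes that overlap or nearly copy the 10 had few counts: 14 of 20 were in the table and 4 to 6 passed the filter in a comparison. In 3D cells 3 of 6 fell, on MUC1 silencing 2 of 6 rose and on MYC silencing 1 of 5 rose, which became 2 without vehicle replicate 1 or DOX replicate 1 and 0 without DOX replicate 2. With GO-203, 0 of 4 passed in edgeR and 0 in DESeq2, and 0 had an unadjusted p below 0.05 in either. Markers of epithelial, mesenchymal and endothelial cells moved beside the 10 genes, and their part in these results was not tested. The summed level of 12 epithelial markers was 35.3 to 40.2 CPM in 2D cells, 45.1 to 49.4 in 3D cells and 110 to 122 CPM with GO-203. It rose from 25.2 to 29.0 CPM with vehicle to 38.9 to 42.6 CPM with DOX in the tet-MUC1shRNA line, and from 22.5 to 30.0 CPM to 81.2 to 118 CPM in the tet-MYCshRNA line. Of these markers, 3 of 5 tested rose and 2 fell in 3D cells, 5 of 7 rose and 1 fell on MUC1 silencing, 1 of 5 rose with GO-203 and 3 of 3 rose on MYC silencing. KRT5, a basal keratin, went from 0.0235 CPM in 2D cells to 23.8 CPM in 3D cells and 94.1 CPM with GO-203, and was the larger part of the sum with GO-203 and in DOX-treated tet-MYCshRNA mammospheres (66.4 CPM). In 2D cells and in both vehicle-treated tet lines most of the sum was ERBB2, at 36.1, 25.1 and 20.1 CPM. Among 12 mesenchymal markers 4 of 11 rose and 7 fell in 3D cells, and 9 of 11 rose on MYC silencing, where COL3A1 rose 19.7-fold beside THY1. On MUC1 silencing 6 of 12 mesenchymal markers rose and 4 fell, and with GO-203 4 of 12 passed, each of them higher. In 3D cells and on MUC1 silencing their summed level ran against these tallies: it was 5195 to 5918 CPM in 2D cells and 9015 to 9569 CPM in 3D cells, and 12240 to 13370 CPM with vehicle against 10210 to 11050 CPM with DOX in the tet-MUC1shRNA line. It was 9694 to 10110 CPM with GO-203, and 8352 to 8425 CPM with vehicle against 15430 to 18100 CPM with DOX in the tet-MYCshRNA line. In each mammosphere group more of it was FN1, the fibronectin gene (group means of 5209 to 12520 CPM, and 460.2 CPM in 2D cells), than any other marker. The 6 endothelial markers summed to 1.07 to 1.80 CPM in 2D cells and 5.86 to 12.4 CPM in mammospheres, where PECAM1 had group means of 3.02 to 9.40 CPM and TEK of 0.267 to 2.12 CPM, while CDH5 did not exceed 4 counts. Only 1 or 2 of the blood markers and 2 or 3 of the endothelial markers passed the low-count filter in a comparison.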

How the data were processed

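Stranded, paired-end mRNA libraries of 21 BT-549 cultures were processed by the authors, who deposited raw counts per gene without normalization. The submitters' processing notes name CASAVA 1.8.2, STAR 2.7.3a (the study's methods give another STAR release) and GRCh38, and the methods name featureCounts. The annotation release, strand setting and treatment of reads with several positions are not given in the sources used here. Empty cells, which fill whole blocks of libraries (4952 to 7587 genes), were read as 0. Symbols (42252 of 42339 genes) and positions came from GENCODE release 44, and promoter windows from RefSeq.

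In R 4.3.3, each comparison was fitted on its 6 libraries with edgeR 4.0.16 (filterByExpr, TMM factors, quasi-likelihood test, Benjamini-Hochberg adjustment over all genes tested, threshold 0.1). Both differences between comparisons were fitted as interactions over 12 libraries. Alternatives were DESeq2 1.42.0, other scalings and filters, all 21 libraries in one fit, a threshold of 0.05, the replicate block, another control line for 3D cells, and leaving out each library. Replicate numbers did not pair the cultures. On simulated data with 200 genes changed by a log2 of 2, edgeR recovered 99.0% to 100% in each fit and also called 11 to 27 unchanged genes. The simulation gave every gene the same spread between libraries and changed only genes above a minimum mean count. It therefore does not show how well smaller changes or genes with few counts are recovered. Named genes are the 10 genes, MUC1, MYC, BMI1, up to 4 genes per list and comparison (largest change, no overlap, at least 100 mean counts), the 3 most similar genes of each member with such counts, and cell type markers. A gene named for one comparison may be shown in another. The 10 genes and the lists were chosen with earlier results of these data known. Depth is given in the report, and counting limits use 3 counts as the floor.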

Additional observations from a re-analysis of the deposited data

Results flagged for a closer look

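For each gene below, the change on MUC1 silencing differed from that on MYC silencing in edgeR's interaction test at an adjusted p below 0.1. The difference in log2 fold change (MUC1 minus MYC silencing) was −0.31 for CD44, −3.25 for CD24, −0.44 for SOX9, −1.79 for KLF4, −1.999 for THY1, 1.54 for POU5F1 and 3.51 for SOX2. That for SOX2 rests on a group with 0 counts, and its call was lost with DESeq2, without the low-count filter, with all 21 libraries in one fit, with the replicate block and on leaving out any 1 of 9 libraries. The call for POU5F1 was lost on leaving out any 1 of 3 libraries (adjusted p = 0.102 to 0.184 in edgeR, with the difference down to 0.996), and that for CD44 with library size alone (−0.11, edgeR adjusted p = 0.175). Against GO-203, the difference (MUC1 silencing minus GO-203) was −2.38 for CD24, 1.20 for SOX9, 2.62 for POU5F1 and −1.09 for THY1.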

How the results depend on the processing

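Of 610 alternative values of the genes' log2 fold changes, 565 kept their direction and side of the threshold, 33 no longer passed, 5 newly passed with the same sign and 7 changed sign, of which 1 also newly passed (CD44 on MUC1 silencing with library size alone). The number of genes passing stayed within 1.5 times of the reported number in each of 97 alternatives. The sign changes were all of values close to 0. CD44 on MUC1 silencing was 0.16 with library size alone and 0.0389 with at least 10 counts in every library, and it ranged from −0.034 to 0.0101 when each library was left out. KLF4 with GO-203 was −0.0108 with all 21 libraries in one fit and ranged from −0.0238 to 0.058 when each library was left out. The difference of CD44 between MUC1 silencing and GO-203 was 0.0752 with library size alone. Library size alone moved the median of all genes by 0.17 on MUC1 silencing, 0.20 in the difference from MYC silencing and 0.15 in that from GO-203. The cause of these shifts was not tested.

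Replicate numbers did not pair the cultures: the mean correlation of same-numbered deviations was −0.02, 0.02, 0.06 and −0.10. With the replicate block, the number of genes passing was 6 for 3D against 2D cells, 5 for MUC1 silencing, 3 for GO-203 and 6 in place of 7 for MYC silencing, where SOX2 no longer passed. The lists, with 325 passing calls over the 4 comparisons when a gene of several lists is counted once, gave 286 to 335 under the alternatives other than leaving out a library, for which this total was not computed. Of 627 alternative counts of single lists, 24 moved by more than 1.5 times, 10 of them with at least 10 counts in every library, a filter that leaves fewer genes to test. Vehicle-treated tet-MUC1shRNA mammospheres also replaced the 3D cells against 2D cells. The log2 fold changes were then −1.35 for CD44, −6.87 for CD24, −1.99 for SOX9, 0.55 for KLF4 and 0.39 for THY1, and each passed. POU5F1 was not tested there. Values under about 1 CPM (POU5F1 and SOX2) are limited by depth.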
